A study of Mesocricetus auratus with 6 samples.

Results

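The genes described here encode the writers, erasers and readers of N6-methyladenosine (m6A), the commonest internal modification of messenger RNA, measured in BHK21 cells. The members were chosen by name, 10 in all (Mettl3, Mettl14, Wtap, Fto, Alkbh5, Ythdc1, Ythdc2, Ythdf1, Ythdf2 and Ythdf3), and the family was selected on a measured value, the higher level of Ythdc2 in STYK1/NOK libraries. Of these 10, 8 had values among the 16078 genes listed, and Wtap and Ythdf2 were not analysed here. Because the difference between the groups was known when the family was proposed, the members' differences are given as a description, without a test.

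BHK21 cells are fibroblast-like and were established from kidney of young hamsters (Mesocricetus auratus, with an age of one day in the labels). The 6 libraries came from cells transfected with STYK1/NOK (STYK1 1 to 3) or with the plasmid pCMV-Myc (vector 1 to 3), and STYK1/NOK is a receptor-like kinase that the series calls an oncogene. Total RNA was taken 48 after transfection, with no unit given for that time. The labels name neither the species of the STYK1/NOK sequence nor the share of cells transfected, and they do not state whether libraries of 1 group are separate cultures, so errors cover only how far these libraries differ and may be technical. Values are FPKM (fragments mapped to a gene, divided by transcript length and by the mapped fragments of the library), a scale per length on which different genes can be compared. They are averages over a whole culture, in which fewer expressing cells and less RNA per cell cannot be told apart.

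m6A is placed on nuclear RNA by a complex in which METTL3 is the catalytic subunit, METTL14 its RNA-binding partner and WTAP an adaptor. FTO and ALKBH5, dioxygenases that need iron and 2-oxoglutarate, remove it. Proteins with a YTH domain bind it: YTHDC1 in the nucleus, where it acts on splicing and export, the YTHDF proteins in the cytoplasm, where they act on mRNA decay and translation, and YTHDC2, which also carries an RNA helicase of the DEAH type and is best known for its part in meiosis.

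Facts of the whole series bear on every value. The hamster gene Styk1 read 1.5, 1.80 and 1.89 FPKM in the vector group, and 2.04, 2.46 and 2.41 FPKM after STYK1/NOK transfection (here and below, values of a group are in the order of its libraries, 1 to 3). It was low in all 6, with the groups not overlapping, as for 13.6% of all tested genes in this direction. Whether these values include reads of the transfected sequence was not tested. Read totals were not used here, so the counting error behind an FPKM value is unknown. The FPKM sums were 619840, 554681 and 557946 in the vector libraries, and 528160, 530277 and 542638 in the STYK1 libraries. Every STYK1 sum was below every vector sum, so scaling to equal sums raises STYK1 values relative to vector values. Vector 1 stood apart: on log2(FPKM + 1) over 11464 genes it correlated with the others at r = 0.963 to 0.976, against 0.988 to 0.993 among those 5. The fitted differences of the members and of the list genes named are therefore given with and without it. Of the fibroblast and mesenchymal markers, Vim lay at 3650 to 4141 FPKM, Fn1 at 191 to 228.8 FPKM and Pdgfrb at 35.2 to 39.2 FPKM, while Col1a1, Col1a2, Col3a1 and Thy1 were at or under 1.02 FPKM in every library. The 5 epithelial markers with values summed to 0.19 to 0.32 FPKM in vector and 0.09 to 0.35 FPKM in STYK1 libraries, and none of these 5 was at 0 in all 6 libraries. Ptprc, the defining marker of blood cells, was at or under 0.16 FPKM. The other blood cell markers with values lay higher, with Csf1r at 2.91 to 3.70 FPKM. Cd68 and Cd14 lay at 278.8 to 351.3 and 170.1 to 233.8 FPKM. Of the endothelial markers, Pecam1 lay at 0.35 to 0.54 FPKM, Cdh5 at 4.45 to 9.11 FPKM and Tek at 0 to 0.10 FPKM. Markers without values were S100a4, Krt19, Kdr and Lyz2.

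All 8 members with values were expressed in every library. Ythdf1 had the highest mean over the 6 libraries, 66.6 FPKM, above 87.1% of the genes tested. It was followed by Ythdc1 at 38.3 FPKM, Alkbh5 at 30.3 FPKM, Mettl14 at 28.5 FPKM, Fto at 22.3 FPKM, Mettl3 at 18.2 FPKM, Ythdf3 at 14.9 FPKM and Ythdc2 at 9.47 FPKM, the last above 34.7% of the genes tested. Most neighbours in this order kept it in each library: Ythdf1 lay above Ythdc1, Ythdc1 above Alkbh5, Mettl14 above Fto and Ythdf3 above Ythdc2 in 6 of 6. Alkbh5 exceeded Mettl14, and Fto exceeded Mettl3, in 5 of 6 libraries, with vector 1 the exception in both pairs. Mettl3 and Ythdf3 did not differ beyond their spread, since each was the higher in 3 of 6 libraries. Relative to their means, Ythdf1 and Mettl14 varied least (coefficients of variation of 4.52% and 5.81% over the 6 libraries) and Ythdf3 varied most (25.2%).

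**Figure D1:**
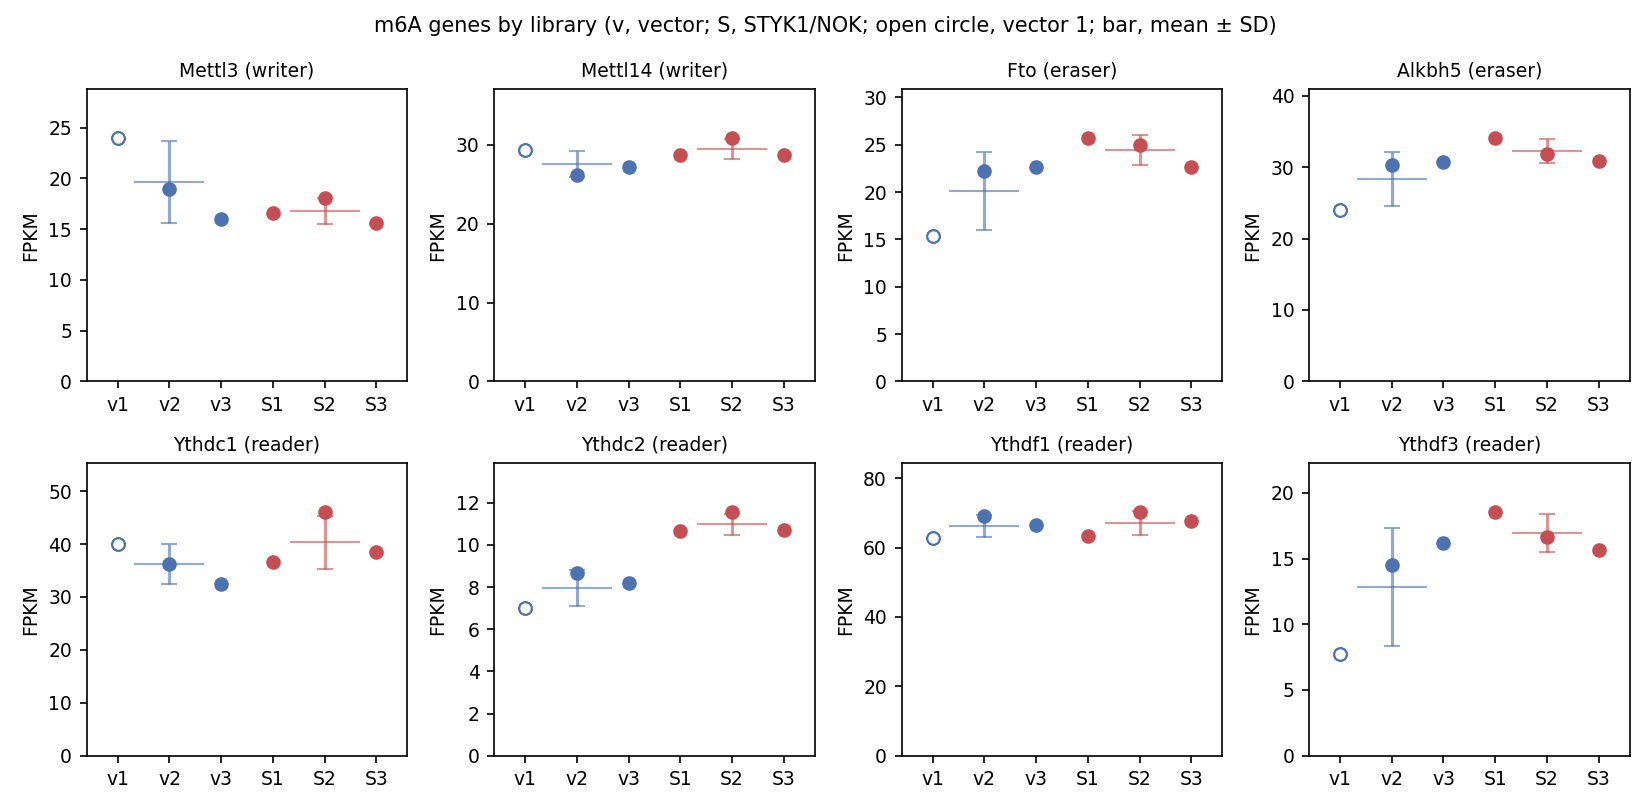
Level in FPKM (vertical axes, from 0) of the 8 m6A genes in vector (blue, v1 to v3) and STYK1/NOK (red, S1 to S3) libraries, with group means ± SD (n = 3); the open circle is vector 1. For Ythdc2 all 3 red points lie above all 3 blue points, by 2 FPKM at the closest, while for Ythdf3 and Fto the low vector mean comes with a low vector 1.

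Ythdc2 (NCBI Gene ID 101836015), the helicase reader, was the member whose value led to the choice of the family. Its vector libraries read 7.02, 8.67 and 8.21 FPKM, and its STYK1 libraries 10.67, 11.56 and 10.70 FPKM. The groups did not overlap, and the lowest STYK1 library exceeded the highest vector library by 2 FPKM. The ratio of the means was 1.38 and the fitted difference on the log2(FPKM + 1) scale was 0.42 ± 0.12 (SE, n = 3 each). Without vector 1, its lowest library, the ratio was 1.30 and the difference 0.34 ± 0.09 (SE). This is the value the choice of the family rests on, and it supports nothing further.

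The nuclear reader, Ythdc1 (Gene ID 101823001), read 40.05, 36.29 and 32.38 FPKM with vector, against 36.64, 46.05 and 38.41 FPKM with STYK1/NOK. The groups overlapped, with STYK1 2 the highest and vector 3 the lowest of the 6. Its log2 difference was 0.15 ± 0.12 (SE), and 0.22 ± 0.10 (SE) without vector 1. The ratio of Ythdc1 to Ythdc2 took values of 5.71, 4.19 and 3.94 with vector, against 3.43, 3.98 and 3.59 with STYK1/NOK. That ratio overlapped between the groups, because STYK1 2 lay just above vector 3. Its vector mean was 4.61 with and 4.06 without vector 1, against 3.67 in STYK1 libraries. Ythdc2 made up 3.34%, 3.83% and 3.73% of the summed FPKM of the 8 members in the vector libraries and 4.55%, 4.62% and 4.65% in the STYK1 libraries. The share is built from the same Ythdc2 values and is no separate evidence.

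Of the cytoplasmic readers, Ythdf1 (Gene ID 101844824) was the most even, with 62.91, 69.08 and 66.58 FPKM in its vector libraries, against 63.30, 70.28 and 67.70 FPKM in its STYK1 libraries. The groups overlapped almost fully, and the log2 difference was 0.02 ± 0.08 (SE; 95% interval -0.17 to 0.21). Ythdf3 (Gene ID 101835733) read 7.73, 14.54 and 16.21 FPKM with vector, against 18.54, 16.64 and 15.67 FPKM with STYK1/NOK. Vector 1 was far below the rest, and STYK1 3 lay below vector 3. Its log2 difference of 0.43 ± 0.24 (SE) was as large as that of Ythdc2, but without vector 1 it was 0.13 ± 0.10 (SE). Ythdf1 supplied 89.1%, 82.6% and 80.4% of the FPKM of Ythdf1 and Ythdf3 together with vector, against 77.3%, 80.9% and 81.2% with STYK1/NOK. The vector mean of this share was 84.0% with and 81.5% without vector 1, against 79.8% in STYK1 libraries. Ythdf1, Ythdf2 and Ythdf3 are close paralogs, and the sources used here do not say how reads that match several of them were assigned.

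Among the writers, the catalytic subunit Mettl3 (Gene ID 101835295) was the only 1 of the 8 members with a lower mean FPKM in STYK1 libraries, although Ythdf1 was also below 0 after median centring, with quality weights, without vector 1 and without STYK1 2. Its vector libraries read 24.00, 18.97 and 15.99 FPKM, and its STYK1 libraries 16.58, 18.10 and 15.57 FPKM. The groups overlapped, and vector 1 was the highest library. The log2 difference was -0.20 ± 0.15 (SE), and -0.06 ± 0.10 (SE) without vector 1. Mettl14 (Gene ID 101839745), whose protein forms a heterodimer with METTL3, read 29.40, 26.17 and 27.26 FPKM with vector, against 28.67, 30.92 and 28.76 FPKM with STYK1/NOK. Its groups also overlapped, within a range of 1.18-fold from the lowest to the highest of the 6, and its log2 difference was 0.09 ± 0.09 (SE), and 0.14 ± 0.07 (SE) without vector 1.

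The ratio of Mettl3 to Mettl14 took values of 0.816, 0.725 and 0.587 with vector, against 0.578, 0.585 and 0.541 with STYK1/NOK. The means were 0.709 ± 0.116 in vector and 0.568 ± 0.0236 in STYK1 libraries (SD, n = 3 each). All 3 STYK1 libraries lay below all 3 vector libraries, but vector 3 and STYK1 2 were separated by little, and the vector libraries spread far wider than the STYK1 libraries. Without vector 1 the vector mean was 0.656. In each of the 6 libraries the mRNA of the catalytic subunit was the less abundant of the pair per length.

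Of the erasers, Alkbh5 (Gene ID 101841527) read 23.94, 30.27 and 30.67 FPKM with vector, against 34.11, 31.77 and 30.80 FPKM with STYK1/NOK. The groups did not overlap, though the closest libraries, vector 3 and STYK1 3, were only 0.13 FPKM apart. The log2 difference was 0.19 ± 0.11 (SE), and 0.08 ± 0.07 (SE) without vector 1. Fto (Gene ID 101835182) read 15.32, 22.25 and 22.70 FPKM with vector, against 25.74, 24.95 and 22.63 FPKM with STYK1/NOK, so that STYK1 3 fell between vector 2 and vector 3. Its log2 difference was 0.29 ± 0.15 (SE), and 0.11 ± 0.08 (SE) without vector 1, which was the lowest library for both erasers. The ratio of Alkbh5 to Fto took values of 1.56, 1.36 and 1.35 with vector, against 1.33, 1.27 and 1.36 with STYK1/NOK, and overlapped between the groups. Its vector mean was 1.42 with and 1.36 without vector 1, against 1.32 in STYK1 libraries.

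**Figure D2:**
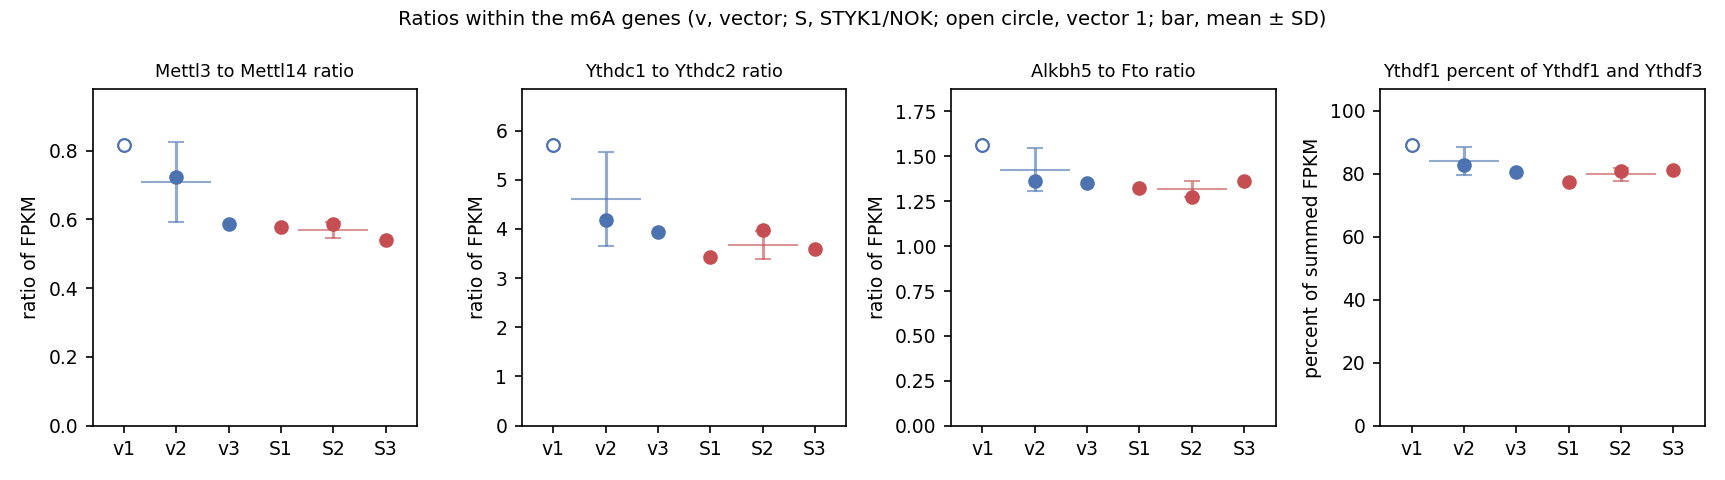
Ratios of FPKM, and the share of Ythdf1 in the FPKM of Ythdf1 and Ythdf3 in percent (vertical axes, from 0), in each vector (blue) and STYK1/NOK (red) library, with means ± SD (n = 3); the open circle is vector 1. Vector 1 is the highest point in all 4 panels, and only the Mettl3 to Mettl14 ratio keeps the groups apart, from 0.587 in vector 3 to 0.585 in STYK1 2.

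Counted together, the libraries of the groups did not overlap for 2 of the 8 members, Ythdc2 and Alkbh5, both higher in STYK1, and for 0 lower in STYK1. Ythdc2 is in this count by the choice of the family, and of the other 7 members 1 is in it. The same pattern held for 13.6% of all tested genes in the higher and 9.44% in the lower direction. No gene of the 11464 passed the fit across all genes (limma-trend, 0% under an adjusted p of 0.05; the smallest was an adjusted p of 0.469), and therefore no member did. The median log2 difference was 0.17 over the 8 members, 0.15 over the 7 other than Ythdc2 and 0.01 over all tested genes. Without vector 1 these medians were 0.12, 0.11 and 0.02. They describe members chosen with the contrast known, so nothing is read from them.

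**Figure D3:**
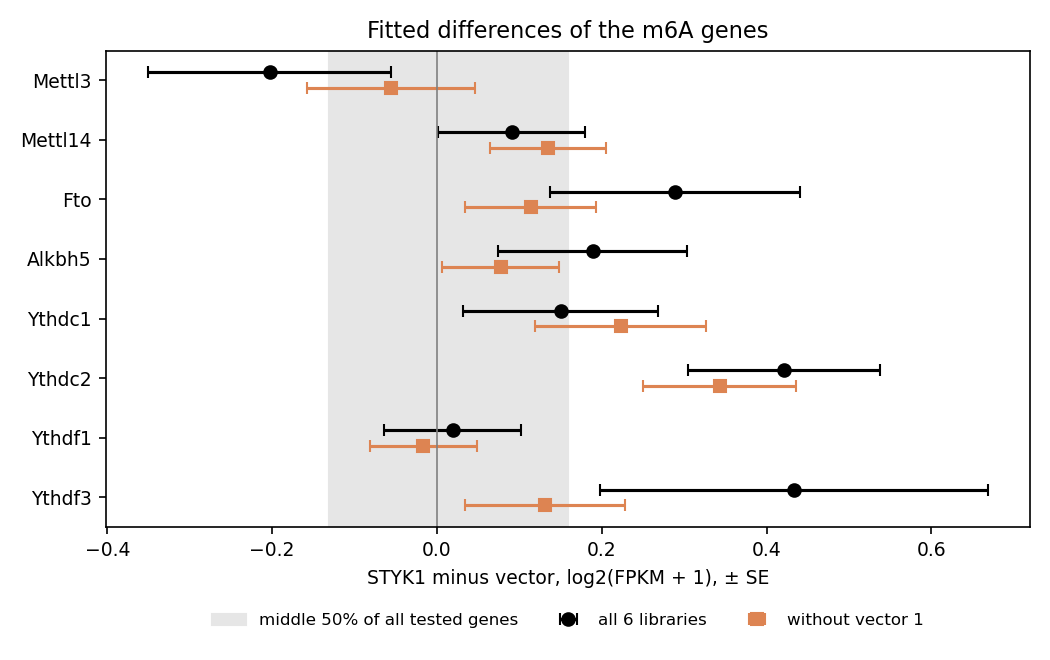
Fitted difference between STYK1/NOK and vector libraries on the log2(FPKM + 1) scale (horizontal axis, bars ± SE) for each m6A gene, with all 6 libraries (black) and without vector 1 (orange); the grey band is the middle 50% of all tested genes, -0.13 to 0.16. Ythdc2 stays at 0.34 without vector 1, while Ythdf3 moves from 0.43 to 0.13.

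Vector 1 took part in most of these differences. It lay below all other 5 libraries for 5 of the 8 members (Ythdf3, Fto, Ythdc2, Alkbh5 and Ythdf1) and above them for 1 (Mettl3). Over all tested genes the shares were 36.2% below and 37.1% above. Ythdc2 is in the count of 5, and its lower vector values led to the choice of the family. On the log2(FPKM + 1) scale vector 1 minus the mean of the other 5 was -0.98 for Ythdf3 and -0.59 for Fto. For Ythdc2 and Alkbh5 it was -0.44 and -0.38, and for Mettl3 0.47. The middle 50% of all genes lay between -0.29 and 0.29 in the same comparison. For Ythdf1, Mettl14 and Ythdc1 the values were -0.10, 0.05 and 0.08. The part of vector 1 in each group difference is given by the values without it.

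**Figure D4:**
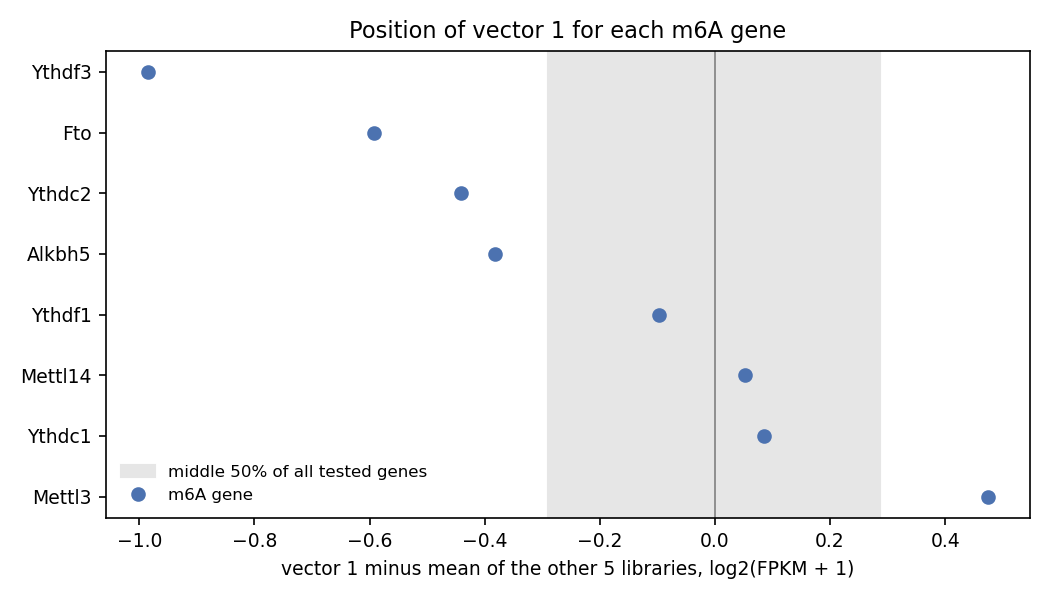
Level in vector 1 minus the mean of the other 5 libraries on the log2(FPKM + 1) scale (horizontal axis) for each m6A gene; the grey band is the middle 50% of all tested genes. Ythdf3, Fto, Ythdc2 and Alkbh5 lie to the left of the band and Mettl3 to its right.

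Other genes were taken from 6 lists with 67 tested genes. Of these lists, 4 covered the m6A machinery, its partners and its methyl donor. A further 2 were chosen for enzyme families of members, the AlkB homologs and the DEAH-box and related helicases. By the fit across all genes 0 of the 67 passed (limma-trend, smallest adjusted p = 0.469), and at an unadjusted p under 0.05 there were 6 higher and 4 lower in STYK1 libraries, against 4.95% (568) and 4.88% (560) of all tested genes. That balance depended on the scaling: with equal FPKM sums it was 9 higher and 1 lower in the lists and 1263 higher and 218 lower over all genes, and after median centring 5 and 4 in the lists and 402 and 762 over all genes. With libraries weighted by quality limma called 24 genes, 0 of them among the 67 or the members. The groups did not overlap for 11 of the 67 genes in the higher and 4 in the lower direction, against 13.6% and 9.44% of all tested genes. Genes named below are the extremes of each list, where groups apart are more likely. The values that follow are therefore descriptions, as means ± SD of FPKM with n = 3, vector before STYK1.

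The remaining methyltransferase subunits and RNA m6A methyltransferases numbered 10, all tested, with 8 of 10 log2 differences above 0, a median of 0.07 (0.10 without vector 1) and 0 members called in either direction. Over the other settings that median ran from 0.01 after quantile normalization to 0.17 with equal FPKM sums. Virma, the scaffold that joins WTAP to other subunits, measured 7.75 ± 0.573 and 9.45 ± 0.451 FPKM, with groups that did not overlap and a log2 difference of 0.26 ± 0.11 (SE). Cbll1 (also known as HAKAI), a further subunit, measured 9.01 ± 2.23 and 10.7 ± 1.45 FPKM, and overlapped. At the other end, Trmt112, the partner that stabilises the ribosomal RNA methyltransferase METTL5, measured 109.7 ± 10.2 and 88.7 ± 6.58 FPKM, a log2 difference of -0.30 ± 0.10 (SE) with groups apart. Pcif1, which methylates the cap-adjacent adenosine, measured 19.1 ± 4.06 and 16.5 ± 0.387 FPKM, with overlap. Without vector 1 the log2 differences of Virma and Trmt112 were 0.21 and -0.23, and those of Cbll1 and Pcif1 were 0.06 and -0.03, against 0.24 and -0.19 with all 6 libraries.

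Of 12 further proteins reported to bind m6A or structures that depend on it, 10 had log2 differences above 0 (median 0.08, or 0.04 without vector 1; 0 called). Eif3a, a subunit of the translation initiation factor eIF3, measured 82.8 ± 13.5 and 109.2 ± 3.99 FPKM, with groups apart and a log2 difference of 0.41 ± 0.12 (SE), or 0.27 ± 0.06 (SE) without vector 1. Fmr1, whose protein FMRP binds many mRNAs, measured 34.3 ± 7.29 and 42.9 ± 1.88 FPKM, also apart, with 0.34 ± 0.15 (SE) and, without vector 1, 0.15 ± 0.07 (SE). Prrc2a and Igf2bp2 had the lowest differences, -0.04 ± 0.10 and -0.03 ± 0.08 (SE), or 0.04 and -0.06 without vector 1, and overlapped between the groups. Vector 1 was the lowest library for 10 of these 12 genes and the highest for 2, against 36.2% and 37.1% of all tested genes.

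The list of decay and translation partners of YTH readers holds 15 genes, of which 13 were tested (median 0.07, or 0.01 without vector 1; 9 of 13 above 0; 0 called). It also includes Eif3h, a partner of METTL3, and the splicing factor genes Srsf3 and Srsf10. The 2 that did not pass the filter on low values, Meioc and Rbm46, encode the partners of YTHDC2 in meiotic cells. Meioc was listed at 0.05, 0.05 and 0 FPKM with vector, against 0.05, 0.21 and 0.05 FPKM with STYK1/NOK, and Rbm46 at 0 in every library other than STYK1 1, where it was at 0.07 FPKM. The helicase reader was thus measured in cells whose mRNA for these meiotic partners was at or near 0. Cnot6l, a deadenylase of the CCR4-NOT complex, measured 6.997 ± 2.30 and 10.1 ± 0.492 FPKM, with groups apart by 0.30 FPKM and a log2 difference of 0.52 ± 0.20 (SE), or 0.29 ± 0.12 (SE) without vector 1. Xrn1, the 5′ to 3′ exonuclease with which YTHDC2 is known to associate, read 6.99, 10.26 and 8.65 FPKM with vector, against 10.90, 11.85 and 10.82 FPKM with STYK1/NOK, apart by 0.56 FPKM. Its log2 difference was 0.35 ± 0.14 (SE), or 0.22 ± 0.10 (SE) without vector 1. Rida, also called HRSP12, an adaptor between YTHDF2 and an endonuclease, measured 24.9 ± 1.81 and 19.7 ± 3.09 FPKM, and Eif3h, a subunit of eIF3 that METTL3 binds, measured 366.7 ± 54.7 and 313.3 ± 9.83 FPKM. The groups were apart by 0.02 FPKM for Rida and 7.94 FPKM for Eif3h, with log2 differences of -0.33 ± 0.12 and -0.22 ± 0.11 (SE), and of -0.28 and -0.10 without vector 1.

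The AlkB homologs outside the members numbered 7, all tested, with 2 of 7 log2 differences above 0 and 0 called. Their median was -0.10, or -0.02 without vector 1 and 0.01 with libraries scaled to equal FPKM sums. Alkbh1, a demethylase of tRNA and other substrates, measured 19.9 ± 1.75 and 24.2 ± 0.782 FPKM, apart, with 0.27 ± 0.10 (SE), and 0.21 ± 0.07 (SE) without vector 1. Alkbh8, a tRNA-modifying enzyme, measured 2.95 ± 0.787 and 3.13 ± 0.167 FPKM, with overlap, and its log2 difference was 0.08 ± 0.17 (SE), or -0.02 ± 0.16 (SE) without vector 1. Alkbh7, a mitochondrial protein, measured 13.6 ± 4.69 and 8.76 ± 1.77 FPKM, a log2 difference of -0.55 ± 0.23 (SE) with overlapping groups, and Alkbh2, a DNA repair enzyme, measured 20.2 ± 3.86 and 14.8 ± 2.63 FPKM, a difference of -0.42 ± 0.17 (SE) with groups apart by 0.46 FPKM. Without vector 1 the values of Alkbh7 and Alkbh2 were -0.31 and -0.28. The differences of the genes named Alkbh thus lay on both sides of 0. Those of Alkbh5, Alkbh1 and Alkbh8 were above it, the last of these below it without vector 1.

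The enzymes of S-adenosylmethionine supply, the methyl donor of the writers, had 9 tested genes of 10 listed (Mtap was not analysed here), with a median of 0.09, 7 of 9 above 0 and 0 called; without vector 1 the median was -0.02. Mtr, methionine synthase, measured 4.64 ± 1.80 and 6.19 ± 0.878 FPKM, and Adk, adenosine kinase, 25.4 ± 2.51 and 28.0 ± 3.69 FPKM. Ahcy, which clears S-adenosylhomocysteine, measured 189.5 ± 1.88 and 185.9 ± 10.9 FPKM, and Mat2b, the regulatory subunit of methionine adenosyltransferase, 53.3 ± 2.65 and 52.8 ± 3.99 FPKM. All 4 overlapped between the groups. Their log2 differences were 0.40 ± 0.25 for Mtr, 0.13 ± 0.12 for Adk, -0.03 ± 0.08 for Ahcy and -0.01 ± 0.09 for Mat2b (SE), and without vector 1 they were 0.10, 0.05, -0.02 and -0.05.

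The 16 DEAH-box and related helicases had a median of 0.07 (0.04 without vector 1, and -0.03 with quality weights), with 10 of 16 above 0 and 0 called. The helicase part of YTHDC2 is of the DEAH type, while Dhx58 in this list is of another helicase family. Dhx9 read 28.19, 48.36 and 49.53 FPKM with vector, against 54.84, 51.18 and 58.30 FPKM with STYK1/NOK, with groups apart and a log2 difference of 0.42 ± 0.20 (SE), or 0.16 ± 0.07 (SE) without vector 1. Dhx15, a splicing helicase, measured 60.6 ± 13.9 and 72.8 ± 4.81 FPKM, Dhx16 18.0 ± 3.13 and 15.2 ± 1.24 FPKM, and Dhx34 7.27 ± 1.07 and 6.38 ± 0.555 FPKM, each with overlap. Their log2 differences were 0.29 ± 0.16, -0.22 ± 0.13 and -0.16 ± 0.14 (SE), and without vector 1 they were 0.08, -0.09 and -0.06. With all 6 libraries the log2 differences of Dhx9 and Ythdc2 were both 0.42, and without vector 1 they were 0.16 and 0.34; whether the genes differ in this was not tested.

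**Figure D5:**
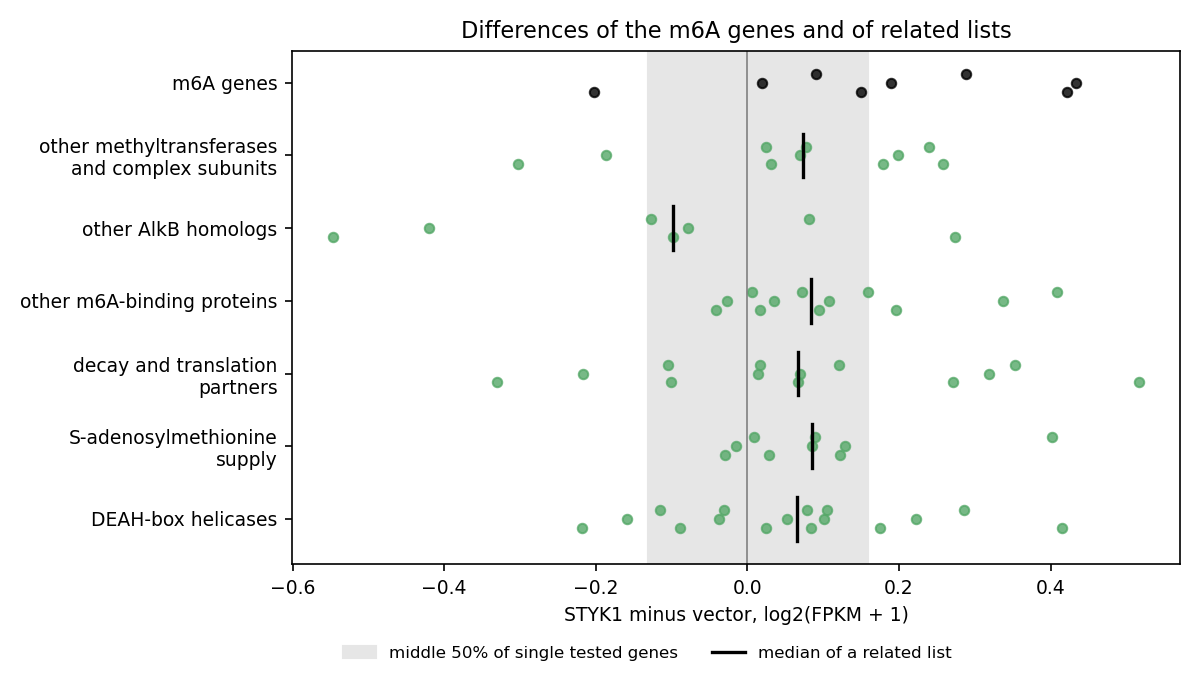
Fitted difference between STYK1/NOK and vector libraries on the log2(FPKM + 1) scale (horizontal axis) for each tested gene of the m6A family (black) and of the 6 related lists (green); vertical bars are the medians of the related lists and the grey band is the middle 50% of single tested genes, -0.13 to 0.16. Each related list has genes on both sides of 0, and their medians run from -0.10 to 0.09.

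The genes whose pattern over the 6 libraries was most like that of Ythdc2 were sought among 9811 tested genes with a symbol. Members and placeholder symbols (LOC, Rik, orf and numbered Fam) had been left out of these. The measure was the root mean square difference of log2(FPKM + 1) profiles centred on each gene's own mean. The nearest was Frs2, an adaptor of FGF receptors, at 0.04, with 7.29, 9.49 and 8.99 FPKM after vector, against 11.28, 12.23 and 10.74 FPKM after STYK1/NOK. It was followed by the ubiquitin ligase gene Hectd2 at 0.04, the centriole gene Cep135 at 0.05, the deubiquitinase gene Vcpip1 at 0.05 and the methyltransferase gene Mettl6 at 0.05. The median over all genes compared was 0.26. Each of these genes, like Ythdc2, was lowest in vector 1, and their likeness rests on 6 shared libraries and is a description.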

How the data were processed

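The authors deposited 1 table of FPKM values per library, with 2 decimals and NCBI Gene IDs, per the file headers. Bowtie 0.12.2 and the mouse builds mm8 and mm9 are named, without a role, in the submitters' processing notes; no source used here names the FPKM tool, the annotation or the use of strand. IDs were named through the RefSeq gene table of hamster assembly BCM_Maur_2.0 (15049 of 16078 matched), used for names only; no coordinates or sequences were taken. Libraries were grouped by the treatment label, 3 per group. Genes averaging 1 FPKM or more in 1 group (11464) were tested with limma-trend (limma 3.58.1, R 4.3.3, robust) on log2(FPKM + 1), without further scaling and with Benjamini-Hochberg adjustment. Differences on that scale understate changes of low genes. The code was tested on simulated data. Members and lists were chosen with earlier results of these data known. All members were named; in each list the 2 highest and 2 lowest differences were named, and 5 genes by likeness to Ythdc2. Alternatives covered the pseudocount (0.1, 0.5), the filter (none, 5 FPKM), scaling, library weights, a replicate block and leaving out each library. A planned comparison of protein sequences was not run.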

Additional observations from a re-analysis of the deposited data

How the results depend on the processing

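The number of genes passing the fit across all genes (limma-trend, adjusted p under 0.05) was 0 with all 6 libraries, and 24 with libraries weighted by quality, which gave vector 1 a weight of 0.129; leaving out 1 library at a time gave 0 to 2, with 2 each without vector 3, STYK1 1 or STYK1 3. None of the 8 members with values and none of the 67 list genes passed under any of the alternatives run. Whether the replicate numbers pair the libraries was not settled. Same-numbered libraries deviated from their group means with correlations of -0.27, -0.16 and 0.11 over genes, against -0.28 to 0.28 for libraries with different numbers. With 3 libraries per group, of which vector 1 stands apart, these values cannot decide it. The fit with the replicate number as a block called 0 genes, as did the fit without it. When libraries were scaled to equal FPKM sums, the median over all genes went from 0.01 to 0.12, and the log2 differences of Mettl14 and Ythdf1 to 0.20 and 0.13. With equal sums the medians of the methyltransferase, m6A-binding, decay-partner, S-adenosylmethionine and helicase lists lay between 0.17 and 0.19, and that of the AlkB list at 0.01. Over the 15 alternatives the difference of Ythdc2 ranged from 0.32 to 0.52 and that of Ythdf3 from 0.13 to 0.62, and Ythdf1 had the other sign in 4. The other 7 kept their sign. Depth was unknown, so no limit from counting is given.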

Other observations

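Among the members themselves, profiles over the 6 libraries were nearest for the erasers Fto and Alkbh5, with a root mean square difference of 0.08 on the centred log2(FPKM + 1) scale, and farthest for Mettl3 and Ythdf3, at 0.57. Ythdc2 was nearest to Fto, at 0.13. These distances rest on 6 libraries, of which vector 1 stands apart, and are given as values.

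Of the Igf2bp genes, which encode m6A-binding proteins, Igf2bp2 was the most abundant per length, at 67.4 to 72.3 FPKM over the 6 libraries. Igf2bp1 read 1.29, 3.02 and 2.73 FPKM with vector, against 1.38, 3.08 and 3.42 FPKM with STYK1/NOK, so that 1 library of each group was low. Both genes were picked for this paragraph with their values known.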
